A study of Mus musculus with 4 samples.

Results

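IL-4-only regions near start sites were stretches of open chromatin that had a peak in both libraries of T cells cultured with IL-4, had no peak in either library cultured without it, and lay with their centre within 5 kb of the start of an annotated transcript. Peaks of the 4 lists that shared at least 1 base were merged into 93503 regions, of which 41403 lay near a start site, and 864 of these (2.09% of the regions near start sites) met the rule. The regions were thus chosen by the calls of the 4 libraries, so their calls, heights and q-values are given as a description, with no test. Their sequence was not used to choose them, and their position was used only up to the limit of 5 kb.

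The study asked how IL-4 hinders the differentiation of induced regulatory T cells (iTregs), and it used ATAC-seq, in which a transposase cuts DNA where nucleosomes leave it free, to find open chromatin. Naive CD4+ T cells, sorted as CD62L high, CD44 low and CD25- from the spleen of 7-week-old male wild-type C57BL/6 mice, were activated for 48 h by antibodies to CD3 and CD28 at 5 and 1 µg/ml, in the presence of 5 ng/ml TGF-β1 and 10 ng/ml IL-2. The iTreg+PBS group (2 libraries) was cultured in this mix without IL-4, and the iTreg+IL-4 group (2 libraries) in the same mix with IL-4 at 15 ng/ml. The study describes its ATAC-seq samples as pooled and biologically independent, and every library held the bulk of its culture, so more cells with an open region and a more open region in each cell cannot be told apart. No library lacked the marks of T cells, since all 10 genes of the T cell marker list had a start site with a peak in all 4 libraries, against 2 of 7 B cell markers, 3 of 8 myeloid markers, 2 of 6 markers of CD8 T and NK cells and 2 of 5 markers of non-haematopoietic cells.

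IL-4 binds its receptor on T cells and activates STAT6, which enters the nucleus and binds DNA. STAT dimers recognise the arms TTC and GAA, and most of them prefer 3 bases between the arms, whereas STAT6 is known for binding where 4 bases separate them. Chromatin near start sites is commonly open in every cell that can use the gene, so that changes on cytokine signalling are more often found at enhancers in introns or upstream.

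The motif TTCNNNNGAA, called STAT6-type below, was searched on both strands within 200 bases about each region's centre. It was found in 114 of the 864 IL-4-only regions near start sites, or 13.2% (95% Wilson interval 11.1 to 15.6), against 2132 of all 41403 regions near start sites, or 5.15%. With 1 library left out, which loosens the rule and adds regions, the share of 13.2% fell to between 7.92% and 12.4%. The 8 holders with the best standing in their lists are shown to let the motif be read in its place. Each sequence is on the forward strand of GRCm38 (mm10), and capitals mark the match.

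Olfr525 (chr7:140322554-140322583): atgttatcaaTTCTACAGAAacagagcatt
Xpnpep1 (chr19:53018363-53018422): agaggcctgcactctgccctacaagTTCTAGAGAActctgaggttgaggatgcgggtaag
Anapc1 (chr2:128629855-128629914): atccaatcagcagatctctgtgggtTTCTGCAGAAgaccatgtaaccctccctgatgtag
Stat5a (chr11:100859088-100859147): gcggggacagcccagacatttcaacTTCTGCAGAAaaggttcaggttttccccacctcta
Slc25a31 (chr3:40707281-40707340): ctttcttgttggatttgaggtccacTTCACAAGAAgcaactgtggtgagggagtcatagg
Wdr59 (chr8:111520625-111520684): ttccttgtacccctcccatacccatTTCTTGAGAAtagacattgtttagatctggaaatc
Smurf1 (chr5:144961876-144961935): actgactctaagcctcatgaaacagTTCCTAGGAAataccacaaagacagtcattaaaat
Sesn1 (chr10:41886306-41886365): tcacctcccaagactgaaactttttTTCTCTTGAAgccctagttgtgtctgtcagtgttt

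The matches of Olfr525, Xpnpep1, Anapc1, Stat5a and Wdr59 share the longer arms TTCT and AGAA, and that of Smurf1 has the arms TTCC and GGAA. Over all 121 matches that lay whole within the windows of the IL-4-only regions near start sites, 30 (24.8%) had the arms TTCT and AGAA, against 152 of 1154 matches (13.2%) in regions called in all 4 libraries. The arms TTCC and GGAA made up 9.92% and 10.8% of the matches in these sets, a like share in both. The windows of these sets differed in base composition, with a median GC of 48.2% and 56.5%. Its part in the share of TTCT and AGAA arms was not tested. A match is a run of letters and does not show that a factor was bound there.

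Regions called only without IL-4 were the closest counterpart. Of 41403 regions near start sites, 248 (0.599%) were called in iTreg+PBS replicates 1 and 2 but in no iTreg+IL-4 library, and 8 of them (3.23%, 95% interval 1.64 to 6.24) held the STAT6-type motif. Of the 24925 regions near start sites called in all 4 libraries, 1117 held it (4.48%, 95% interval 4.23 to 4.75). The interval of the IL-4-only regions lay above those of both other sets, although regions of one set share their libraries and are not replicates, and the intervals cover only the counting of regions.

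The motif of the control, TTCNNNGAA, differs from the STAT6-type motif by a single base of spacing and did not show the same order. It was present in 57 of the 864 IL-4-only regions near start sites (6.60%), in 23 of 248 PBS-only regions (9.27%), in 6.56% of the regions called in all 4 libraries and in 7.09% of all regions near start sites. The intervals of the first pair, 5.13 to 8.45 and 6.26 to 13.5, overlapped. Both motifs were present in 8 IL-4-only regions near start sites (0.926%, interval 0.470 to 1.82) and in 0.529% of all regions near start sites.

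**Figure D1:**
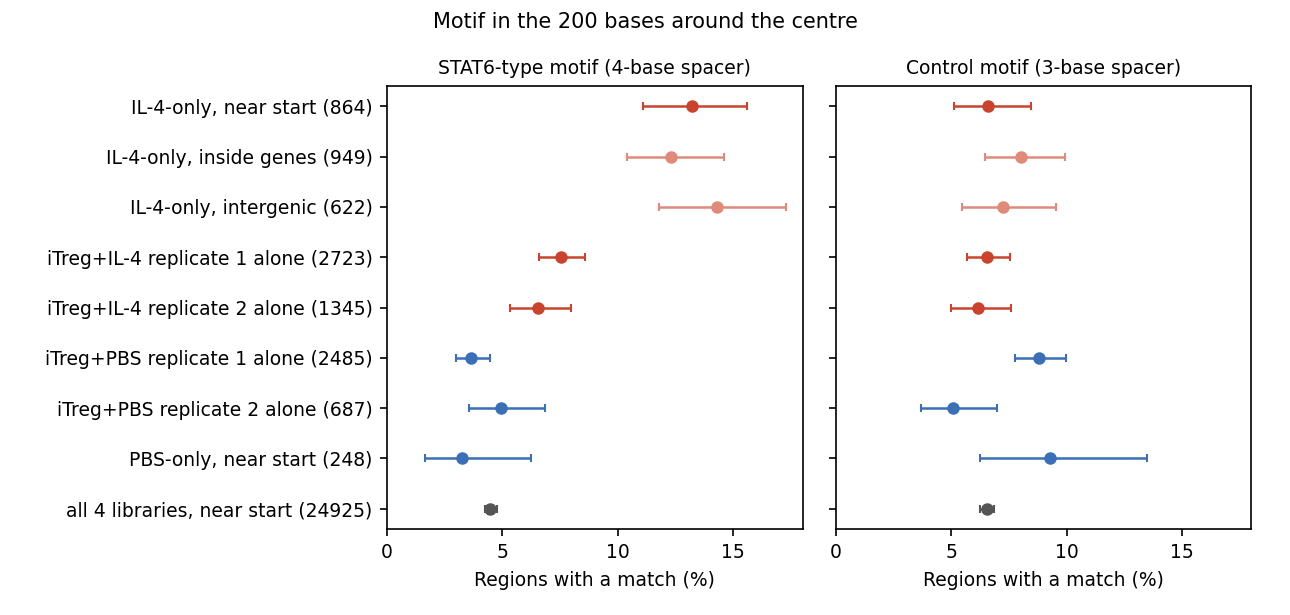
Percent of regions (horizontal axis) with the STAT6-type motif (left) or the control motif (right) in the 200 bases around the centre, by set of regions (vertical axis, number of regions in brackets); points are shares and bars 95% Wilson intervals, which cover counting of regions only. The IL-4-only regions near start sites stand at 13.2% on the left, above PBS-only regions at 3.23%, and at 6.60% against 9.27% on the right.

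For a comparison over libraries, regions near start sites that had a peak in 1 library alone were used. None of them is an IL-4-only region as defined above, but they too were picked by presence in one group and absence in the other, from the same calls. Of these, 3.66% of 2485 in iTreg+PBS replicate 1, 4.95% of 687 in iTreg+PBS replicate 2, 7.53% of 2723 in iTreg+IL-4 replicate 1 and 6.54% of 1345 in iTreg+IL-4 replicate 2 held the STAT6-type motif. Both iTreg+IL-4 libraries were thus above both iTreg+PBS libraries, but not with the upper 50% of each list, where iTreg+PBS replicate 2, at 6.42%, passed the 5.75% of iTreg+IL-4 replicate 2. Over all peaks, the mean was 4.31% ± 0.910 (SD, n = 2) for iTreg+PBS and 7.04% ± 0.697 (SD, n = 2) for iTreg+IL-4, a difference of 2.73 percentage points (exact two-sided permutation test, p = 0.333, the smallest p that 2 libraries against 2 allow). The design therefore cannot place this difference past a threshold of 0.05. For the control motif the 4 shares were 8.81% and 5.09% without IL-4 and 6.54% and 6.17% with it, and the groups overlapped (p = 1.00, same exact permutation test).

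Matches to the STAT6-type motif were concentrated at the centre of the IL-4-only regions near start sites. Counted by their midpoints, there were 124 matches within 100 bases of the centre, or 718 per Mb searched, and between 300 and 500 bases from it 73 matches, or 211 per Mb, a ratio of 3.40. The flanks were thus close to the regions called in all 4 libraries, which had 242 matches per Mb at the centre and 237 per Mb in the flanks (ratio 1.02). In PBS-only regions the ratio was 0.818, on 9 central matches. The control motif gave a ratio of 0.944 in the IL-4-only regions, 1.29 in the regions called in all 4 libraries and 2.55 in the PBS-only regions, where it rested on 28 central matches.

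**Figure D2:**
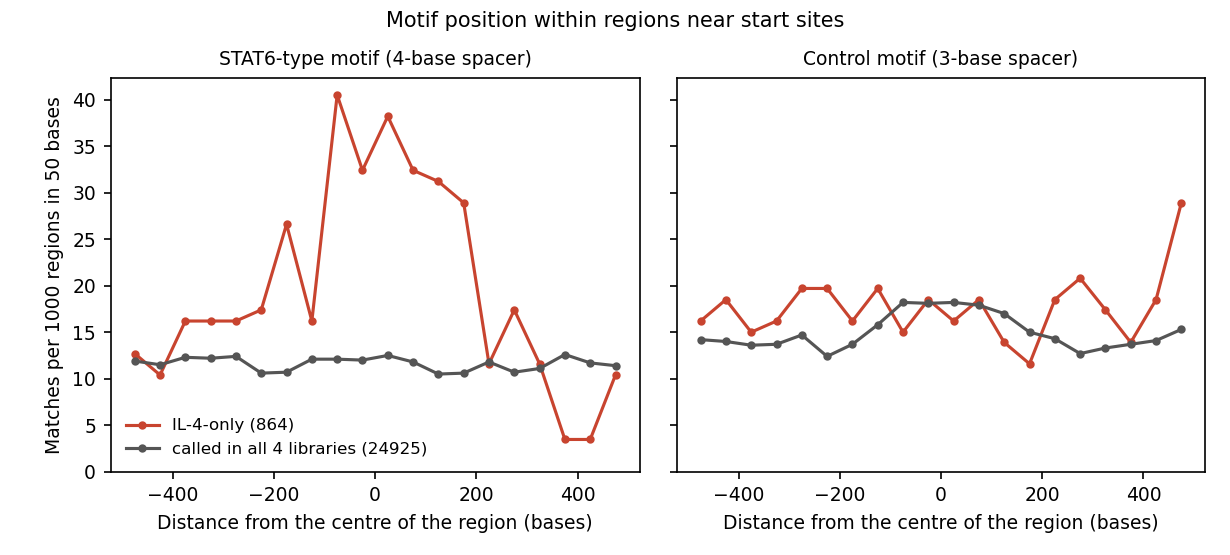
Matches per 1000 regions in steps of 50 bases (vertical axis) against the distance from the centre of the region in bases (horizontal axis), for the STAT6-type motif (left) and the control motif (right), in 864 IL-4-only regions (red) and 24925 regions called in all 4 libraries (grey), all near start sites. The red line rises from 12.7 at the left edge to 40.5 between 100 and 50 bases before the centre on the left panel, and the grey line stays flat.

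The share of holders differed among the IL-4-only regions themselves. It was 16.4% (71 of 432) in those of better standing and 9.95% (43 of 432) in the other 432, where standing is the worse of the percents of peaks ranked above the region in the lists of both iTreg+IL-4 libraries. It was 10.3% (30 of 290) within 1 kb of a start site and 14.6% (84 of 574) between 1 and 5 kb. Regions whose nearest gene was protein-coding (13.3%) and the others (13.0%) were alike. The order of the IL-4-only set against the others was kept within a band of base composition: in windows with 45 to 55% GC, a restriction chosen after the data were seen, the share was 13.1% in IL-4-only regions, 4.96% in PBS-only regions and 6.35% in regions called in all 4 libraries. IL-4-only regions over 5 kb from any start site held the motif at similar shares, 12.3% of the 949 inside genes and 14.3% of the 622 between genes.

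Further factors of T cells were searched by short words on both strands, each for itself, so that a stretch could match more than 1 word. GATA factors (AGATAA or TGATAA), among them the type 2 regulator GATA3, had a match in 18.4% of the IL-4-only regions near start sites, 11.3% of the PBS-only regions, 8.90% of the regions called in all 4 libraries and 10.8% of all regions near start sites. The share was higher still in IL-4-only regions far from start sites, at 23.3% inside genes and 27.0% between genes. These words are poor in G and C, and the sets differed in median GC. Near start sites it was 48.3% in IL-4-only regions, 49.5% in PBS-only regions and 55.0% in constantly called regions. Far from them, IL-4-only regions had 46.0% inside genes and 46.7% between genes. The part of base composition in the GATA shares was not tested. Near-start regions that both iTreg+IL-4 libraries shared with 1 iTreg+PBS library (median GC 49.3%) held GATA words at 14.4%. Among regions called in 1 library alone, GATA words were present in 9.98% and 13.1% without IL-4 and in 15.8% and 15.3% with it, and the groups did not overlap (difference 4.03 percentage points, exact permutation test, p = 0.333). STAT6-type and GATA matches showed little tendency to go together, since a GATA word was found in 25 of the 114 holders of the STAT6-type motif (21.9%) and in 134 of the other 750 (17.9%).

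The words of AP-1 (TGANTCA), factors activated by the T cell receptor, were present in 11.0% of IL-4-only regions near start sites and in 10.1% of all regions near start sites. In regions called in 1 library alone, their shares followed the replicate number rather than the group, with 15.9% and 13.1% in replicates 1 of iTreg+PBS and iTreg+IL-4 and 5.53% and 7.29% in replicates 2 (p = 1.00, exact permutation test between the groups). RUNX (TGTGGT) was found in 21.2% of the IL-4-only regions and 18.2% of all regions near start sites, and NFAT (TGGAAA), which calcium signalling activates, in 16.7% and 14.3%. The differences between groups over single libraries were -1.92 and -0.768 percentage points for RUNX and NFAT (p = 1.00 for each, exact permutation test). Words typical of broadly active promoters were less frequent than in the background of regions near start sites: ETS (CCGGAA) was present in 4.40% of the IL-4-only regions against 8.74%, and SP/KLF (GGGCGG) in 10.3% against 23.6%. PBS-only regions lay at 5.24% for ETS and at 16.5% for SP/KLF, for each word between the IL-4-only regions and the background. In regions called in 1 library alone, ETS was present in 3.18% and 1.89% without IL-4 and 4.08% and 2.97% with it, overlapping groups (p = 0.667, exact permutation test), and SP/KLF in 10.1% and 10.3% without and 10.0% and 8.92% with it, where the groups did not overlap (p = 0.333, same test). At least 1 of the 8 motifs occurred in 585 of the 864 regions (67.7%), a share close to the 68.0% of all regions near start sites, and in 150 of 248 PBS-only regions (60.5%). In all, 10 measures were compared over the 4 libraries, and none could pass a threshold of 0.05.

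The IL-4-only regions near start sites were weak peaks in their lists. In iTreg+IL-4 replicate 1 the −log10 of their q-value ran from 1.47 over a median of 6.97 to 131, and their pileup height from 12.0 over 24.0 to 195. In iTreg+IL-4 replicate 2 the same values were 1.31, 6.46 and 46.0, and 10.0, 20.0 and 145. The median of all peaks in these lists was 23.0 and 22.1 on the −log10 scale. Of all peaks in its list, a median of 80.3% ranked above the region in replicate 1 and 82.7% in replicate 2, whereas regions near start sites called in all 4 libraries had medians of 23.1% and 26.1%. PBS-only regions stood as low in the lists in which they were called, with medians of 85.6% and 88.8%.

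Only 33 of the 864 regions (3.82%) lay in the upper 50% of the list of replicate 1, 23 (2.66%) in that of replicate 2 and 10 (1.16%) in both. By contrast, 602 (69.7%) fell in the lowest 20% of at least 1 list. Over the 864 regions the ranks in both lists went together (Pearson r 0.58, Spearman rank correlation 0.54, given as a description across regions that share their libraries). The absence of a call in iTreg+PBS is a threshold and not a level, since the lists give no height where no peak was called. Of the 864, 13 (1.50%) had a −log10 q under 2 in at least 1 iTreg+IL-4 library. This cut marks only the edge of the lists, and the share of all peaks under it was not counted. With lists of 56645 peaks each, 201 of the 864 (23.3%) were kept, so many calls depended on the length of the lists. Among 3675 regions that both iTreg+IL-4 libraries shared with 1 iTreg+PBS library, which fell just outside the rule, 16 (0.435%) had a −log10 q under 2 in the iTreg+PBS library.

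**Figure D3:**
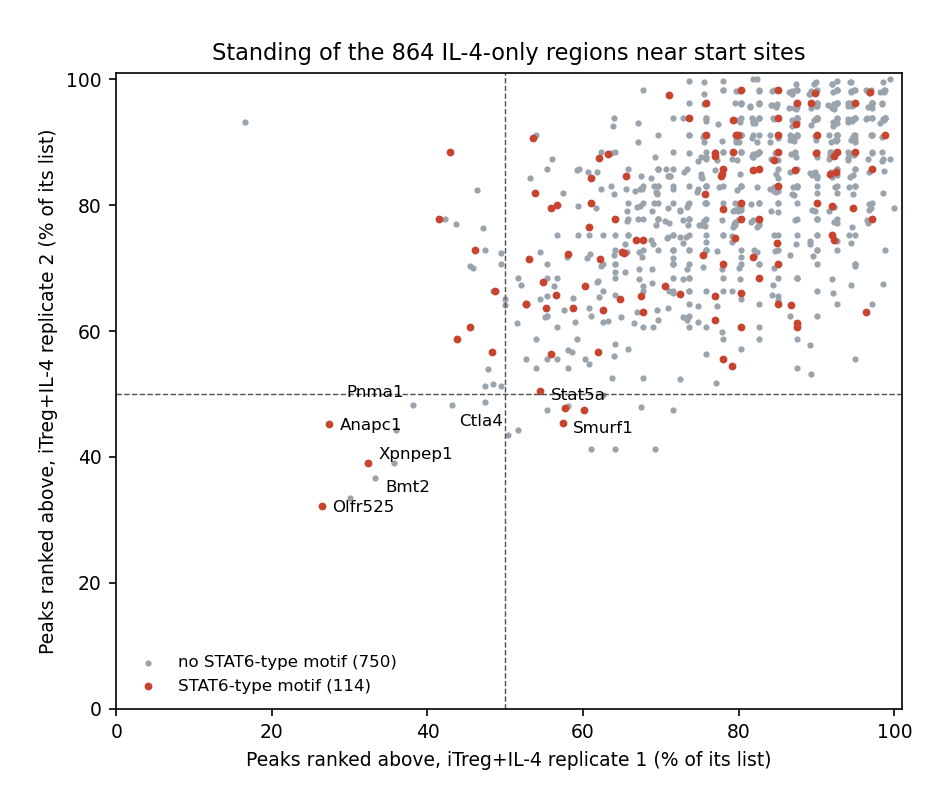
Percent of the peaks of the list that rank above each of the 864 IL-4-only regions near start sites, in iTreg+IL-4 replicate 1 (horizontal axis) and replicate 2 (vertical axis), so that strong peaks lie at the lower left; red points hold the STAT6-type motif and dashed lines mark 50%. Most points crowd the upper right corner, and 10 regions lie under 50% in both lists.

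For a minority of these regions the q-value scored as modest for the height. At a given height, a peak's −log10 q is lower where the caller took the surroundings to be richer in reads. The −log10 q was under 50% of the highest in the same list at the same height for 234 of the 864 regions (27.1%, against 18.1% of all peaks) in replicate 1 and for 202 (23.4%, against 15.6%) in replicate 2. The highest value is 1 peak, and an unusual peak can set it. In replicate 1, 13.2 at height 29 scored 11.2%, while 12.4 at height 28 and 14.1 at height 30 scored 100%. The counts thus include regions with an ordinary q-value for their height. Stat5a was one of these, with 15.2% and 19.7%, and Ctla4 another, with 18.7% and 20.1%.

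By position, the IL-4-only regions were most frequent in the first 500 bases on each side of a start site, but were gathered there far less than regions called in all 4 libraries. The median distance of their centre from the nearest start site was 1678 bases, and 33.6% lay within 1 kb, against 285 bases and 64.0% for regions called in all 4 libraries. Only 102 (11.8%) covered a start site, against 55.1%. Put the other way, 290 of 21544 regions within 1 kb of a start site (1.35%) were IL-4-only, 574 of 19859 between 1 and 5 kb (2.89%) and 1571 of 52100 farther away (3.02%). The share was 1.10% in the first 500 bases, 2.46% from 500 to 1000 bases and between 2.52% and 3.01% in each step of 1 kb beyond. PBS-only regions had much the same placing, with a median distance of 1746 bases and 34.7% within 1 kb.

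**Figure D4:**
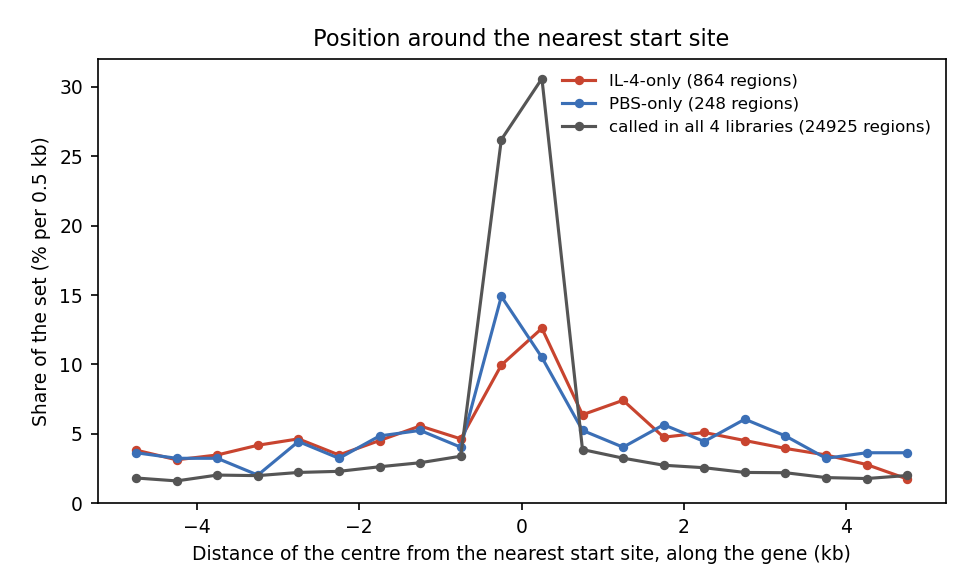
Share of each set per step of 0.5 kb (vertical axis, percent) against the distance of the region's centre from the nearest start site along the gene (horizontal axis, kb, negative upstream), for IL-4-only (red), PBS-only (blue) and constantly called regions (grey). The steps on both sides of the start site hold 26.2% and 30.6% of the regions called in all 4 libraries, and 9.95% and 12.6% of the IL-4-only regions.

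Most IL-4-only regions near start sites lay in introns: 505 (58.4%) had their centre in an intron, against 57.3% of PBS-only regions and 45.7% of all regions near start sites. Of the others, 154 (17.8%) lay in an exon and 205 (23.7%) outside genes. They were spread evenly upstream (409) and downstream (455) of the nearest start site. The nearest gene was protein-coding for 556 (64.4%, against 76.8% of regions called in all 4 libraries), a long noncoding RNA for 129 (14.9%), a pseudogene for 88 (10.2%, against 5.51%) and a small RNA for 44 (5.09%). They were narrow, with a median width of 314 bases (from 174 to 1011) against 781, and poor in CpG, with a median of 12.0 CpG per kb against 34.4 and a GC content of 48.3% against 55.0%. PBS-only regions had a median width of 294 bases, 13.7 CpG per kb and 49.5% GC. By chromosome, the IL-4-only share of the regions near start sites ran from 1.32% on chromosome 2 to 3.22% on chromosome 14, apart from chromosome Y, where none of only 19 regions was IL-4-only.

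For most of these regions, the nearest start site itself was not open in every library. Within 500 bases of it, 151 (17.5%) had a region called in all 4 libraries, 69 (7.99%) another region, and 194 (22.5%) the IL-4-only region and no other. The remaining 450 (52.1%) had none. Among the 556 with a protein-coding nearest gene, the same counts were 123, 47, 134 and 252. The 248 PBS-only regions had similar shares, with 17.7% beside a start site open in all 4 libraries and 22.6% with their own region alone. The nearest iTreg+PBS peak lay a median of 3630 bases away. It was within 500 bases for 87 regions (10.1%) and over 10 kb away for 197 (22.8%). The limit of 5 kb cut through an even run of regions, since Mir6410, Hopxos and Gm28447 lay just inside at 4987, 4999 and 5000 bases, and the regions of Ids, Fthl17-ps3 and Nedd4l just outside at 5016, 5058 and 5060 bases.

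The IL-4-only region of best standing was at Olfr525, an odorant receptor gene. It spanned chr7:140322228-140322767, covered a start site of the gene with its centre 104 bases upstream, and lay in an intron of another of its transcripts. No peak was called in either iTreg+PBS library, the nearest being 555 bases away, whereas iTreg+IL-4 replicates 1 and 2 had peaks of height 195 and 127 with a −log10 q of 69.2 and 46.0. In these lists 26.4% and 32.2% of the peaks ranked above it. A larger peak centred about 1.4 kb upstream was present in all 4 libraries, with heights of 565 and 191 without IL-4 and 493 and 364 with it.

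The region of Anapc1, which encodes a scaffold subunit of the anaphase-promoting complex, lay at chr2:128629649-128630162. It covered a start site of the gene, its centre 129 bases downstream in an exon, and of the 11 annotated start sites 4 had a region called in all 4 libraries, so that this was one of several annotated starts. Its heights were 77 and 38 and its −log10 q 65.4 and 26.4, the highest of their lists at those heights. No iTreg+PBS peak lay within 7 kb, the nearest being 7491 and 7863 bases away in replicates 1 and 2. The region therefore stood alone, unlike that of Olfr525.

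At Stat5a, whose product carries the signal of IL-2 in T cells, the region spanned chr11:100859015-100859378 and covered the start site nearest to it, its centre 154 bases upstream and outside the gene. The heights were 122 and 114 and the −log10 q 19.4 and 21.8, with 54.5% and 50.4% of the peaks ranked above. The STAT6-type match lay 79 bases from the centre. A broad peak 0.5 to 1.5 kb downstream was present in all 4 libraries, at heights of 663 and 247 without IL-4 and 611 and 449 with it, and 5 of the gene's 7 start sites had a region called in all 4 libraries within 500 bases. The IL-4-only region thus lay beside a site open in both groups and was the weaker of the pair.

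Ctla4 encodes an inhibitory receptor on which regulatory T cells rely. Its region, chr1:60910897-60911146, lay 1851 bases downstream of a start site in an intron. Heights of 146 and 105 and a −log10 q of 30.4 and 23.6 put it behind 43.2% and 48.3% of the peaks. The peaks over the start site and about 4.4 kb downstream were present in all 4 libraries, with heights at the start site of 480 and 142 without IL-4 and 450 and 289 with it. The nearest iTreg+PBS peaks lay 1452 and 1604 bases away.

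**Figure D5:**
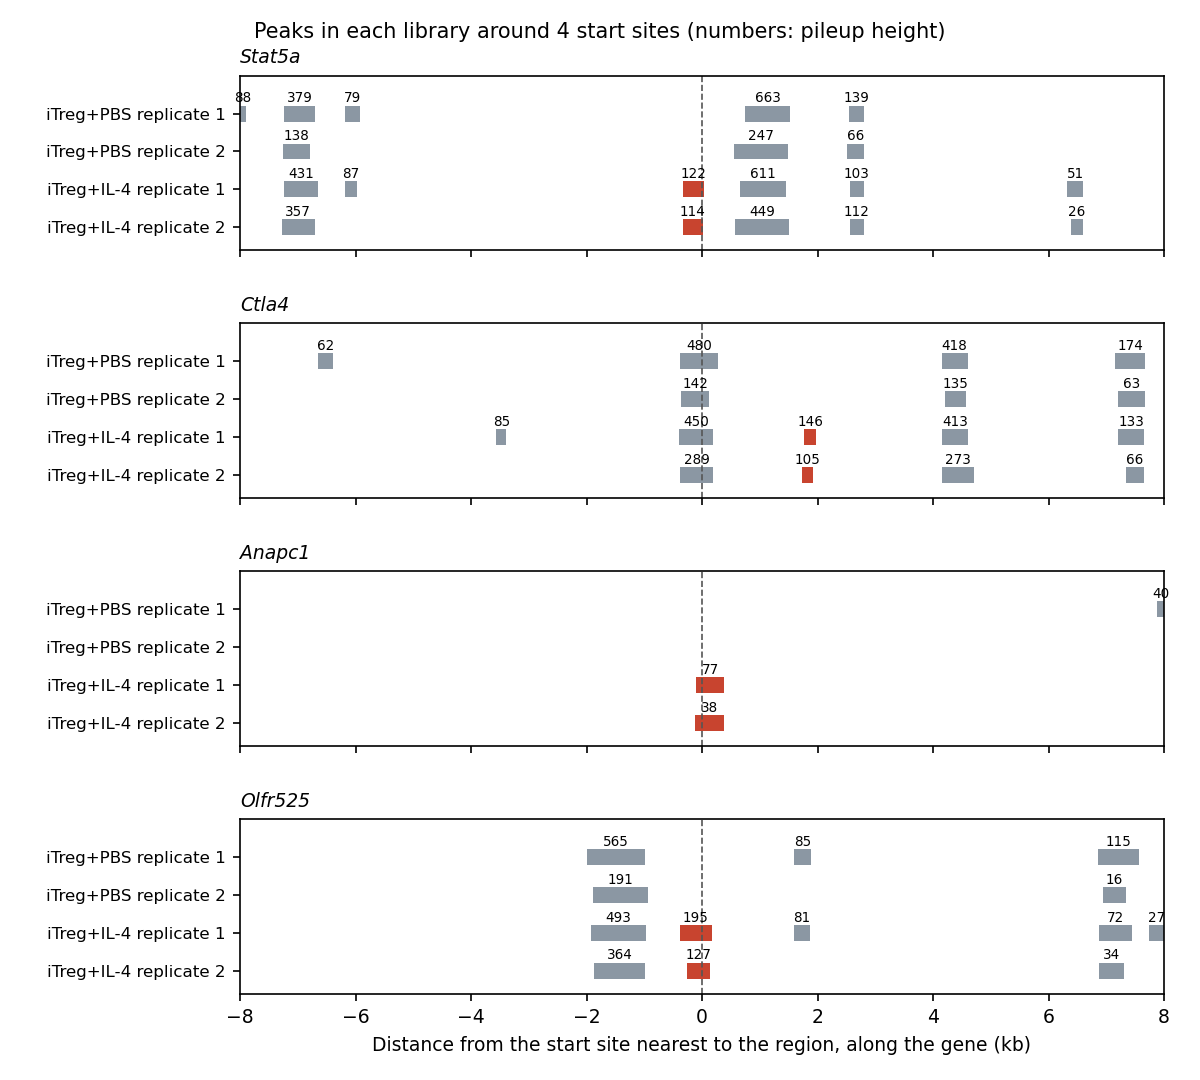
Peaks of each library (rows of each panel) around a start site of Stat5a, Ctla4, Anapc1 and Olfr525, against the distance from the start site along the gene (horizontal axis, kb); bars span the called peaks, red where they make up the IL-4-only region, with the unscaled pileup height above each. The red bars appear only in the iTreg+IL-4 libraries, at heights of 122 and 114 for Stat5a, 146 and 105 for Ctla4, 77 and 38 for Anapc1 and 195 and 127 for Olfr525.

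The other 7 of the 10 regions of best standing lay near Gm11945, Bmt2, Xpnpep1, Gm48789, Gm17772, Pnma1 and n-R5s192. Gm11945, Gm48789 and Gm17772 are processed pseudogenes and n-R5s192 a 5S ribosomal RNA copy, and the regions of Gm48789 and n-R5s192 lay in introns of the protein-coding genes Tmod3 and Mtf1. Bmt2, which encodes a methyltransferase that senses S-adenosylmethionine upstream of mTORC1, had its region 3172 bases downstream in an intron, with heights of 170 and 139. Xpnpep1, encoding a cytosolic aminopeptidase, had one 1760 bases downstream in an intron, with heights of 102 and 70. The region of Pnma1 lay 2845 bases downstream of its start site, in an intron of Dnal1. By the definition of standing, these 10 regions are also the 10 that reached the upper 50% of both iTreg+IL-4 lists.

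Among regions within 1 kb of a protein-coding start site, which numbered 211, those of Arhgef10l and Creld1 came next after Olfr525, Anapc1 and Stat5a. The region of Arhgef10l lay 369 bases upstream of a start site, in an intron of the gene, with heights of 39 and 30. No other peak lay within 8 kb in any library, and none of its 11 start sites had a region called in all 4 libraries. That of Creld1 lay 253 bases upstream of one of 6 start sites, with heights of 85 and 69, and 3 of the start sites were open in all 4 libraries.

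The regions were dispersed over genes. Within 5 kb of their start sites, 621 of 21911 protein-coding genes (2.83%) had an IL-4-only region, and no gene had 3 or more. Of the 15 protein-coding genes with a pair of such regions, Map7, Trio and Mef2c are named here after their values were seen. In 15 lists of genes of T cell biology and other lineages, 15 of 253 genes (5.93%) had one. The lists were put together with earlier results of these data known, and their counts are given list by list as a description. The list genes rested on 14 regions, of which 13 were kept with a reciprocal overlap of 50%, 5 with lists of equal length (those of Ctla4, Smurf1, Btg1, Cd28 and Cd5) and 1 with the upper 50% of each list (that of Ctla4). The regions named below for Foxp3, Sirt1, Egr2, Cd163, Il17rb, Tgfbr3, Itgb7 and Cxcr5 were thus lost in both settings that shorten the lists. The reciprocal overlap of 50% instead enlarged the set, to 1233 regions, of which 769 (62.4%) were IL-4-only regions by the main rule. Being kept with it is therefore not survival of a stricter rule.

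Against the share of 2.83% over all protein-coding genes, lists of this size would hold few regions or none. None of 20 genes of the IL-4 receptor and its signalling and none of 28 activation factors had one, which is near that share, while 19 of 20 and 28 of 28 had a start site open in all 4 libraries. Of 26 type 2 cytokines, factors and receptors, 1 had a region, Il17rb, the receptor chain for IL-25. It lay 1422 bases upstream of Il17rb in an intron of Chdh, with heights of 34 and 27. Among 17 genes listed here as IL-4 targets in other lymphocytes and macrophages, Egr2 and Cd163 had one. Egr2 encodes a zinc finger factor that IL-4 also induces in macrophages, and its region, 645 bases downstream, had heights of 134 and 88. The nearest peaks of iTreg+PBS replicates 1 and 2 each lay only 329 bases from it. Cd163, a haemoglobin scavenger receptor of macrophages, had heights of only 22 and 11 and no iTreg+PBS peak within 53 kb.

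Of 27 regulatory T cell genes, Ctla4 and Foxp3 had a region. That of Foxp3, the master regulator of these cells, lay in an intron of the neighbouring Ppp1r3f, 214 bases downstream of a start site of that nearer gene. It was about 1 kb upstream of a start site of an annotated Foxp3 transcript that begins far ahead of the gene body. Its peaks of height 111 and 73 had a −log10 q of 12.0 and 3.85, and in replicate 2, 93.1% of the peaks ranked above it. At the promoter and the elements CNS1 and CNS2 of Foxp3, the study reports the other direction, with chromatin closed by IL-4. Among 22 genes of TGF-beta signalling, Smurf1 and Tgfbr3 had one. Smurf1 encodes a ubiquitin ligase that removes receptors and SMADs, and its region 3918 bases downstream, with a STAT6-type match in its centre, had heights of 106 and 126. Tgfbr3, the coreceptor betaglycan, had heights of 84 and 58 at 997 bases downstream, with the nearest iTreg+PBS peaks 272 and 152 bases away.

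Sirt1 was the only one of 18 histone deacetylases and sirtuins with a region, which covered a start site with its centre 46 bases downstream. It was weak, with heights of 48 and 44 and a −log10 q of 7.03 and 5.95, and 2 of the gene's 5 start sites had a region called in all 4 libraries. Of 16 naive and quiescence genes, Btg1, an antiproliferative gene of resting lymphocytes, had one 3554 bases downstream with heights of 162 and 145. In 20 chemokine and homing receptors, Itgb7, an integrin chain of gut homing, and Cxcr5, the receptor that leads cells to follicles, had one each. Their heights were 43 and 37 for Itgb7 and 17 and 15 for Cxcr5, whose region covered a start site. None of 23 Th1 and Th17 genes had one.

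The T cell markers had the highest count, 4 of 10 genes, which rested on 3 regions. Cd3d and Cd3g, neighbouring genes for chains of the T cell receptor complex, shared 1 region 496 bases upstream of Cd3d, with heights of 74 and 58. Its nearest iTreg+PBS peaks lay only 195 and 27 bases away, and the region was lost with the upper 50% of each list, with lists of equal length and with a reciprocal overlap of 50%. Of the 3 regions, those of Cd28 and Cd5 were kept under the latter pair of settings, and none with the upper 50% of each list. The region of the costimulatory receptor Cd28 lay 2207 bases upstream, with heights of 34 and 19 and the nearest iTreg+PBS peaks 289 and 377 bases away. That of Cd5, an inhibitor of receptor signalling, lay 3318 bases upstream in an intron of A430093F15Rik, with heights of 96 and 55 and a STAT6-type match. None of these 3 regions reached the upper 50% of either list. No gene of the short B cell, myeloid, CD8 T and NK cell or non-haematopoietic lists had an IL-4-only region near a start site, again near the share of 2.83%. Such genes outside the lists did have regions, among them Blnk and Ciita of B cells and Aif1 of macrophages, which were picked after their values were seen.

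The libraries differed in length of their lists. They held 35707 and 28221 peaks near start sites for iTreg+PBS replicates 1 and 2 and 36325 and 32356 for iTreg+IL-4 replicates 1 and 2. The means were 31964 ± 5293 (SD, n = 2) and 34340.5 ± 2807 (SD, n = 2), and their difference of 2376 did not exceed the replicate spread (p = 0.667, exact two-sided permutation test). Without iTreg+PBS replicate 2, the shortest list, the difference turned to -1366. The same list weighed little on the count of IL-4-only regions, which was 1115 without it. Without iTreg+PBS replicate 1 the count was 4329, and of all regions near start sites 3427 had peaks in the iTreg+IL-4 libraries and in that library alone of iTreg+PBS. The share with the STAT6-type motif was then 7.92%, and 12.4% without iTreg+PBS replicate 2.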

How the data were processed

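The data were 4 ATAC-seq peak lists, 1 for each library, placed in groups by their labels. Per the study's methods, the authors sequenced on the BGISEQ-500 platform, mapped paired reads to mm10 with Bowtie2 2.2.5, retained only pairs that mapped and ran MACS2 2.1.2, and there is 1 deposited list for each library. The submitters' processing notes also name bedtools 2.16.2. The caller's parameters, the removal of duplicate or mitochondrial reads and a correction for the transposase offset are not given in the sources used here, and such steps can move positions, heights and q-values. The lists have no column names. From their values, the deposited numbers were read as the −log10 of the q-value (lowest 1.31, at the threshold of q = 0.05) and as the pileup signal of the authors, a height not scaled for depth. Heights were therefore not compared between libraries. Read numbers are unknown, and no interval was given for a call.

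Start sites were those of 141730 GENCODE vM21 transcripts on assembled chromosomes, at 132629 distinct positions, and sequences came from GRCm38. Shares have 95% Wilson intervals. Group means were compared by exact two-sided permutation tests. The study calls its samples biologically independent and pooled, while the labels do not say which mice or cultures a library came from. Python 3.11.15, numpy 2.4.6, pandas 2.3.3, scipy 1.17.1 and matplotlib 3.10.9 were used. The steps of merging and selection were run on 20000 simulated regions, in which all 200 planted IL-4-only regions were recovered. The simulated lists had no missed calls, so this checks the computation and not the absent calls of the real lists.

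Named are the 10 regions of best standing, the 5 of best standing within 1 kb of a protein-coding start site, every list gene with a region (at most 6 a list), genes with 3 or more regions, the 8 best holders of the STAT6-type motif and the 3 regions on each side of 5 kb. The members, motifs and gene lists were chosen with earlier results of these data known.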

Additional observations from a re-analysis of the deposited data

How the results depend on the processing

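Of 66 alternative values, 25 moved and 1 reversed. A count was taken to move beyond 1.5 times, a share beyond its 95% interval and the median GC by over 0.750 percentage points (the SD between the iTreg+IL-4 libraries of the median GC of regions called in 1 library alone), whereas a difference between groups was followed for its sign only. The count of 864 regions became 343 with the upper 50% of each list and 447 with lists of 56645 peaks each, 556 at 2.5 kb and 1362 at 10 kb. The first of these sets shared 10 regions with the 864 (1.16% of them) and the second 201 (23.3%). Leaving out 1 library gave 1115 to 4329 regions, the highest without iTreg+PBS replicate 1, with 2255 and 3637 without iTreg+IL-4 replicates 1 and 2. The STAT6-type share of 13.2% became 17.8% with the upper 50% of each list, 15.7% with equal lists, 22.1% in windows of 400 bases and 19.3% in whole regions. Without 1 library it was 7.92% to 12.4%, and 8.82% and 9.07% without iTreg+IL-4 replicates 1 and 2. Median GC was 49.1% with protein-coding start sites only and 48.2% to 49.6% without 1 library. The share of list genes was 2.77% with equal lists, where that of all protein-coding genes was 1.51%, and 7.11% to 23.3% without 1 library. It moved with the share of all protein-coding genes, which was 13.0% without iTreg+PBS replicate 1 (list genes 23.3%), 6.83% without iTreg+IL-4 replicate 1 (11.5%), 11.1% without iTreg+IL-4 replicate 2 (18.6%) and 3.64% without iTreg+PBS replicate 2. The share within 1 kb of a start site stayed between 31.1% and 35.6% with shortened lists, a reciprocal overlap of 50%, protein-coding start sites only or 1 library left out. With the upper 50% of the iTreg+IL-4 lists and all iTreg+PBS peaks, chosen after the data were seen, 10 regions were left, all of them among the 864, 30.0% with the motif, 20.0% within 1 kb and a median GC of 45.4%. Without regions that had an iTreg+PBS peak within 500 bases, also chosen afterwards, 777 were left and 13.0% held the motif. The motif difference over single libraries of 2.73 percentage points was 2.09 to 3.37 without 1 library, 3.77 with the upper 50% of each list (where iTreg+PBS replicate 2 at 6.42% passed iTreg+IL-4 replicate 2 at 5.75%), 5.85 with equal lists and 4.23 in windows of 400 bases. The difference in peaks near start sites of 2376 ran from -1366 without iTreg+PBS replicate 2 to 6119.5 without iTreg+PBS replicate 1, and was 392 and 4361 without iTreg+IL-4 replicates 1 and 2. Beyond the regions each alternative adds or drops by construction, the cause was not tested. With libraries of like number paired (a replicate block), the motif difference was 3.87 and 1.59 percentage points within numbers 1 and 2 (mean 2.73) and that in peaks near start sites 618 and 4135 (mean 2376), each with p = 0.5, the smallest that 2 pairs allow in an exact permutation test; nothing in the labels says that a shared number marks a shared day or mouse. Depth limits every absent call, since the number of reads is unknown.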
